A study of Mus musculus with 93 samples.

Results

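Granulosa cells and oocytes of 7 week old Esr2 knockout mice were compared, in 5 granulosa and 12 oocyte libraries out of 93 in the series. The members were all libraries with those labels, and no expression value chose them. The comparison asks which differences between the 2 cell types of the follicle were still present without Esr2, the gene of estrogen receptor beta. As reference, 5 granulosa and 5 oocyte libraries of 7 week old wild type mice were used. All 27 libraries came from ovary and were made with the Smart-seq2 protocol, which copies whole transcripts from small amounts of RNA. The knockout allele, the strain, the treatment and the number of mice or cells behind each library are not given in the sources used here, so p-values measure the spread between libraries, which may be technical. One of the 12 knockout oocyte columns has a name that joins 2 sample numbers, so it may not be a separate sample. Each cell type was counted in its own table, so a difference between cell types cannot be told apart from a difference in how the cells were collected and processed.

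In a growing follicle the oocyte makes the zona pellucida, its glycoprotein coat, and secretes growth factors that act on the granulosa cells around it. Granulosa cells send back KIT ligand, pass small molecules through gap junctions, respond to follicle stimulating hormone and make steroids. Estrogen receptor beta is known as the main estrogen receptor of granulosa cells.

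Esr2 was absent or nearly so in both knockout cell types. It had 0 counts in all 5 knockout granulosa libraries and 4 counts in the 12 knockout oocyte libraries together, against 10.6, 17.8, 23.8, 25.6 and 27 CPM (counts scaled to library size) in the 5 wild type granulosa libraries and 66.2, 69.99, 79.1, 70.1 and 103 CPM in the 5 wild type oocyte libraries. Wild type oocytes therefore held more Esr2 in CPM than wild type granulosa cells, with a log2 difference of granulosa minus oocyte of -1.87 ± 0.39 (SE), adjusted p = 0.000102 by edgeR's quasi-likelihood test, which gives every adjusted p of the comparisons of genes below. In the knockout both groups were at the limit of counting, so no fold is given.

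The libraries held 702726 to 6377087 counts, and 12997 to 17832 genes with a count. Summed over 12 oocyte markers, knockout granulosa libraries held 12.3 to 43.8 CPM and knockout oocyte libraries 16505 to 39641 CPM. Summed over 14 granulosa markers, they held 2189 to 9511 CPM and 52.6 to 263 CPM. Neither sum overlapped between the cell types (exact two-sided permutation test on log2 sums, adjusted p = 0.00122 over 15 tests for each, the smallest that this design can give). Of the oocyte markers, Figla was at 0 in knockout granulosa cells, and of the granulosa markers Inhbb, Fshr, Foxl2, Amh, Amhr2, Wt1 and Gatm were at 0 in knockout oocytes. All 12 oocyte markers were higher in oocytes and 13 of 14 granulosa markers higher in granulosa cells, beside 40.3% and 45.1% of all tested genes. The exception was Cyp19a1, the aromatase gene, which was higher in oocytes.

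**Figure D1:**
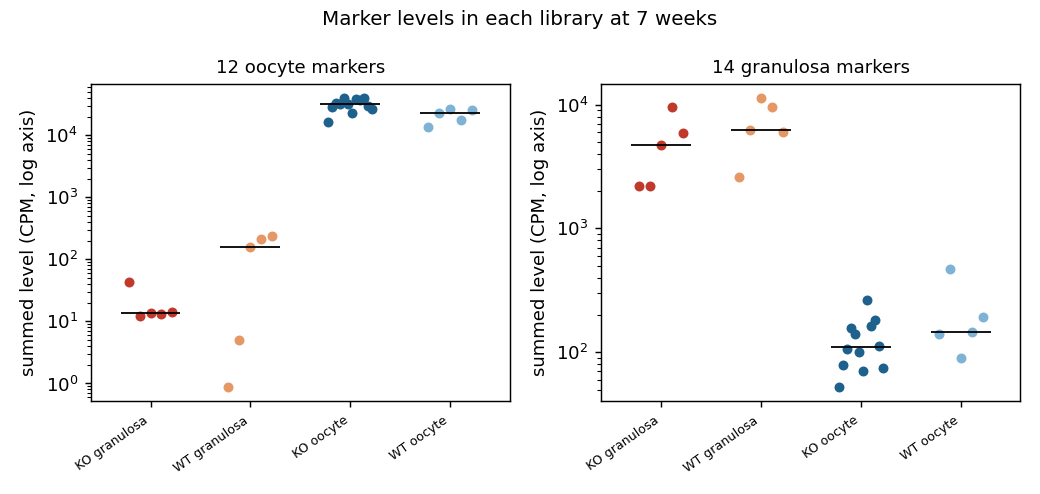
Summed level of 12 oocyte markers (left) and 14 granulosa markers (right) in each library, in CPM on a log axis, for knockout (KO) and wild type (WT). Points are libraries and bars are medians. The 5 KO granulosa libraries lie between 12.3 and 43.8 CPM for oocyte markers, and WT granulosa libraries spread from 0.884 to 233 CPM.

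The oocyte marker sum was uneven among granulosa libraries. It was 160 to 233 CPM in wild type granulosa 3, 4 and 5 and 0.884 and 4.95 CPM in wild type granulosa 1 and 2. The granulosa marker sum in wild type oocytes was 90.2 to 471 CPM, highest in wild type oocyte 2. These values matter for the comparison of genotypes and are given again there. Markers of other cells were also present in knockout granulosa libraries: immune markers summed to 185 to 2215 CPM, theca and stroma markers to 42.1 to 102 CPM with Cyp17a1 and Insl3 at 0, and surface epithelium markers to 91 to 349 CPM against 489 to 1625 CPM in the wild type (exact two-sided permutation test, adjusted p = 0.0298). In bulk libraries, fewer cells of a type and less RNA per cell cannot be told apart.

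Of 15349 genes tested, 13114 differed between knockout granulosa cells and knockout oocytes (85.4%), 6924 higher in granulosa cells (45.1%) and 6190 lower (40.3%). With a difference of at least 2-fold, 12237 were called (79.7%). Because nearly every gene differed, the size and direction of a gene's difference carry more than the fact of its call. The direction depends on scaling: the median log2 difference over all tested genes was 0.28, but 0.59 with RLE factors and 1.05 when scaled to total counts, where 8131 genes were higher and 5056 lower. Changes are given relative to the main scaling. In 3258 tested genes (21.2%) one knockout group was wholly at 0, and for these a lower bound against 3 counts over the group is given in place of a fitted fold.

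The knockout and the wild type gave nearly the same set of cell type differences. Wild type granulosa cells and oocytes differed in 12651 genes (82.4%), 43.9% higher and 38.6% lower in granulosa cells and 78.2% at least 2-fold, and 11816 genes were called in the same direction in both genotypes. That is 93.4% of the wild type calls and 90.1% of the knockout calls, or 77.0% of all tested genes. Among the tested genes 1950 were listed for granulosa cells only and 1268 for oocytes only, and were set to 0 in the other cell type. These genes also enter the Pearson r below. With only the 12114 tested genes listed for both, 9858 were called in the knockout, 9357 in the wild type and 8540 in the same direction in both. The share was 93.4% both for genes higher in wild type granulosa cells (6284 of 6731) and for genes lower there (5532 of 5920). The difference between the genotypes itself was called in 423 genes (2.76%), 133 higher (0.867%) and 290 lower (1.89%), a split that turned to 340 and 194 with total count scaling. In simulated data this test found 1 and 3 of 50 genes changed 2-fold up and down, and 22 and 23 of 50 changed 4-fold. A difference between genotypes that was not called is therefore not shown to be absent. Within a cell type, 1.52% of genes differed between genotypes in granulosa cells and 1.4% in oocytes. Across the 15349 genes the 2 contrasts had a Pearson r of 0.973, given as a description, since genes are not independent replicates and the gap between the cell types sets most of their spread. With the main scaling both genotypes were called in opposite directions in 22 genes, and in 16 of these the difference was called. The wild type direction of single genes was not checked with other scalings. A further 813 wild type differences were not called in the knockout, and in 33 of these the difference between genotypes was called.

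**Figure D2:**
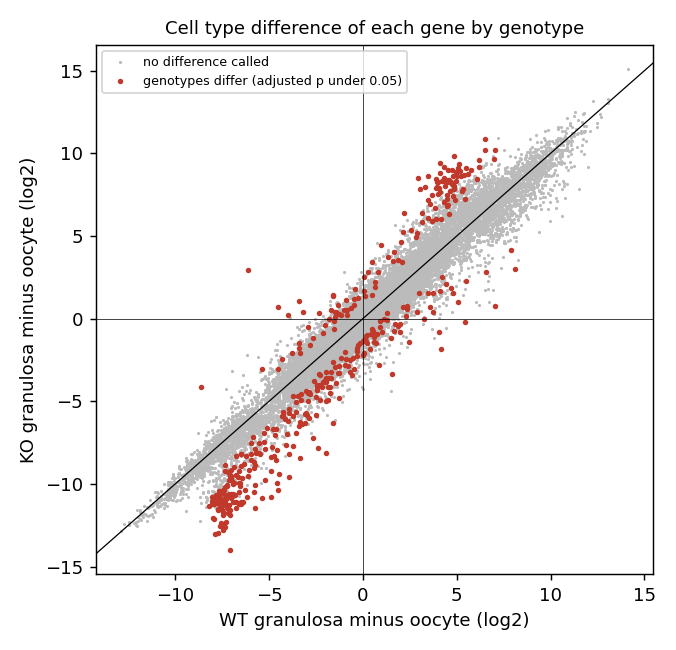
Log2 difference of granulosa minus oocyte for each of 15349 tested genes, wild type on the horizontal axis and knockout on the vertical axis. Red points are the 423 genes whose difference between genotypes was called, and the diagonal marks equal values; the 2 axes have a Pearson r of 0.973.

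The coat and most secreted signals of the oocyte were higher in oocytes. All 3 zona pellucida genes were lower in knockout granulosa cells. Zp3, which codes for one of the zona glycoproteins, had 0.858, 0, 0, 0 and 0.21 CPM in the 5 knockout granulosa libraries and 188 to 517 CPM with a median of 335 in the 12 knockout oocyte libraries. The groups did not overlap, and with 2 granulosa counts in all the oocytes were higher by 3366-fold (95% interval 932 to 27793). In the wild type Zp3 was at 2.07 CPM in granulosa cells and 241 ± 64.8 CPM (SD, n = 5) in oocytes. Zp1, with 1 granulosa count, was higher in knockout oocytes by 3566-fold (95% interval 639.9 to 140880.0) and Zp2, with 4 granulosa counts, by 1399-fold (95% interval 546 to 5135). Zp3 lies on chromosome 5, at 135980099 to 135988624 (GRCm38, plus strand, GENCODE vM21).

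The sequence before the Zp3 start is shown because zona genes mark the oocyte side of this comparison, and E-boxes (CANNTG) are the motif bound by FIGLA, a factor known to act on zona genes. The 250 bases before the RefSeq start (GRCm38.p6, plus strand, chr5:135979855-135980104) hold 3 matches, in capitals, 181, 134 and 55 bases before the start. The motif reads the same on both strands.
Zp3: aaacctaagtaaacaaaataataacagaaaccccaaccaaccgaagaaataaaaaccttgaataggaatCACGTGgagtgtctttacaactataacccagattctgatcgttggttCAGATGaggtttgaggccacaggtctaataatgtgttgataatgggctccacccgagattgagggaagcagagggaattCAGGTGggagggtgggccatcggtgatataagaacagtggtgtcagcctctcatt
Of 27025 promoters of that length, 66.0% hold at least 1 CANNTG, so a match is common.

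Of 5 oocyte secreted factors, 4 were lower in knockout granulosa cells (40.3% of all tested genes were lower). Gdf9, a growth factor needed for follicle growth beyond the primary stage, had 26.6, 6.69, 7.1, 7.6 and 6.29 CPM in knockout granulosa libraries and 6945 to 28403 CPM with a median of 19628 in knockout oocytes. The lowest oocyte was far above the highest granulosa library, and the log2 difference was -10.86 ± 0.94 (SE), adjusted p = 8.36e-12. Bmp15, its close relative, was at 1.18 ± 1.04 CPM (SD, n = 5) and 2643 ± 636 CPM (SD, n = 12). Fgf8 and Fgf10 were at 0 in all granulosa libraries, and knockout oocytes were at least 41.3-fold and at least 70.4-fold higher. Bmp6 was the one factor that did not pass the test in the knockout, with 37.1 ± 11.7 CPM in granulosa cells (SD, n = 5) and 54.8 ± 17.7 CPM in oocytes (SD, n = 12), groups that overlapped (adjusted p = 0.0515); it passed in the wild type, and the difference between genotypes was not called.

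Oocyte transcription factors and stored maternal products followed the same direction, beside 40.3% of all tested genes lower in knockout granulosa cells. All 9 tested transcription factors were lower in knockout granulosa cells, among them Nobox (309 CPM in oocytes), which acts in early follicle formation, and Lhx8, at 0 in granulosa cells and at least 367-fold higher in oocytes. All 25 maternal effect genes were lower, with Npm2, a histone chaperone, at 2.21 against 1618 ± 244 CPM (SD, n = 12) and Dppa3 at 1.21 against 2018 ± 310.1 CPM (SD, n = 12). Of 14 genes of RNA storage and decay 13 were lower, including Dazl and Cpeb1, which bind stored mRNA, and Zfp36l2 was higher (log2 3.15). The members of these lists that belong to multigene families (Obox, Oosp, Nlrp, Tcl1b, Omt2) share sequence with copies, so their single values are uncertain. Of 11 DNA methylation genes 9 were lower, such as the maintenance enzyme Dnmt1 (log2 -4.76 ± 0.24 (SE), adjusted p = 7.46e-17) and its partner Uhrf1 (log2 -7.25); Tet2 was higher (log2 1.59) and Tet1 was not called.

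Among 18 tested genes of meiotic arrest and maturation, 16 were lower in knockout granulosa cells (40.3% of all tested genes were), and Fzr1 and Cdk1 were higher. Mos, the kinase of the metaphase arrest, was at 2507 ± 601 CPM in oocytes (SD, n = 12), and Gpr3, the receptor that keeps cAMP high in the oocyte, was higher there by 456-fold (95% interval 195 to 1405). Aurka, a spindle kinase of dividing cells, had 15.4, 32.9, 24.6, 36.6 and 25.6 CPM in knockout granulosa libraries, 76, 92.9, 46.8, 50.5 and 39.9 CPM in wild type ones and 209 to 468 CPM with a median of 368 in knockout oocytes. The knockout granulosa libraries were all below the wild type ones (log2 -1.16 ± 0.26 (SE), adjusted p = 0.0186), and the cell type gap was wider in the knockout by a log2 difference of -1.66 ± 0.33 (SE), adjusted p = 0.0083. Cdc20, which activates the anaphase complex, was likewise at 43.8 ± 18.9 CPM and 95.8 ± 23.6 CPM in granulosa cells (SD, n = 5 each), with a difference between genotypes of -1.86 ± 0.43 (SE), adjusted p = 0.0218. Plk1 and Ccnb1, also genes of mitosis, passed that test too (adjusted p = 0.0396 and 0.0475).

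**Figure D3:**
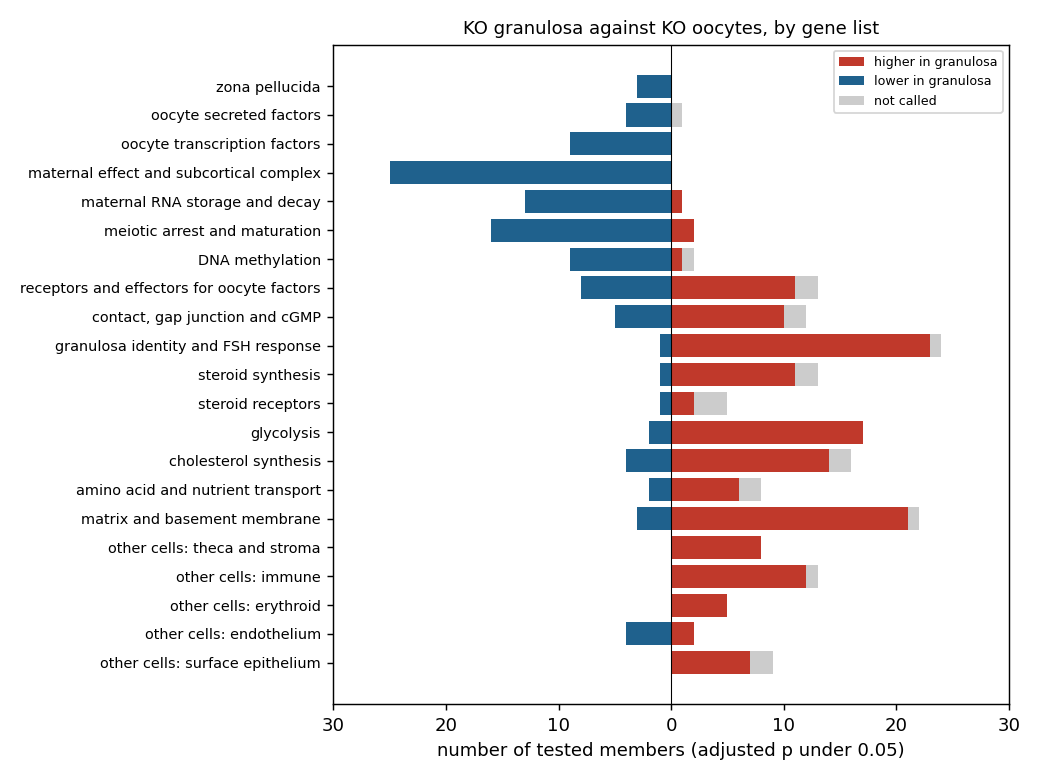
Number of tested members of each gene list called higher (right, red) or lower (left, blue) in KO granulosa cells than in KO oocytes, with members not called in grey. All 25 maternal effect genes are lower and 23 of 25 granulosa identity genes are higher, beside 40.3% and 45.1% of all tested genes.

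Granulosa identity genes were higher in 23 of 25 tested members (45.1% of all genes were higher), with a median log2 difference of 6.74 (6.26 with genes at 0 set to their bound), beside 0.28 over all genes. Inha, the alpha subunit of inhibin, had 586, 482, 1339, 3334 and 1895 CPM in knockout granulosa libraries and 0 to 80.3 CPM with a median of 0.938 in knockout oocytes. The groups did not overlap, and the log2 difference was 7.03 ± 1.04 (SE), adjusted p = 3.5e-07. Nr5a1, a nuclear receptor that drives steroid genes, was at 144 ± 34.3 CPM (SD, n = 5) in granulosa cells and 0.242 CPM in oocytes, and Ccnd2, a cyclin induced by follicle stimulating hormone, at 131 ± 40.7 CPM (SD, n = 5) and 0.477 CPM. Slc18a2 was the 1 lower member (log2 -2.77) and Gata4 was not called. Both Inha and Cyp11a1 also varied within knockout granulosa libraries by more than 5-fold, with library 4 highest.

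Steroid synthesis genes were higher in 11 of 14 tested members (45.1% of all tested genes were higher). Cyp11a1, which cuts the side chain of cholesterol, had 728, 575, 1851, 4307 and 2536 CPM in knockout granulosa libraries, 0 to 7.82 CPM with a median of 1.62 in knockout oocytes and a log2 difference of 9.84 ± 0.67 (SE), adjusted p = 4.05e-14. Its electron donors Fdx1 and Fdxr were at 1485 ± 151 CPM and 569 ± 253 CPM in granulosa cells (SD, n = 5) and 78.6 and 1.95 CPM in oocytes. Star, which brings cholesterol into mitochondria, had 148, 409.9, 173, 317 and 166 CPM in granulosa libraries and 0.463 to 15.2 CPM with a median of 1.5 in oocytes. Cyp19a1 went the other way in both genotypes, with 1.72, 1.12, 0.296, 3.12 and 0.629 CPM in knockout granulosa libraries and 19.95 to 145 CPM with a median of 87.7 in knockout oocytes. Its log2 difference was -5.83 ± 0.57 (SE), adjusted p = 1.09e-10 in the knockout and -2.99 ± 0.49 (SE), adjusted p = 2.95e-06 in the wild type. The difference between genotypes (-2.84 ± 0.70 (SE), adjusted p = 0.0249) lost its call without knockout granulosa 3 or 5, wild type granulosa 2 or wild type oocyte 2 (adjusted p up to 0.0961).

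Esr1, the gene of estrogen receptor alpha, had 27.5, 45.7, 19.8, 19.5 and 35.6 CPM in knockout granulosa libraries and 23.4 to 76.6 CPM with a median of 47.6 in knockout oocytes, groups that overlapped. Its log2 difference was -0.75 ± 0.28 (SE), adjusted p = 0.0127 but -0.42 with RLE factors (adjusted p = 0.17) and 0.0768 with total count scaling (adjusted p = 0.794), so no direction is given. The difference between genotypes in Esr1 was not called (0.41 ± 0.41 (SE), adjusted p = 0.701).

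The genes through which the 2 cell types signal to each other were split by role. Gja1, the gap junction gene of granulosa cells, had 979, 1168, 584, 798 and 646 CPM in knockout granulosa libraries and 0 to 11.9 CPM with a median of 0.62 in oocytes (log2 8.51 ± 0.67 (SE), adjusted p = 1.14e-12), whereas Gja4, the connexin of the oocyte side, was higher in knockout oocytes by 305-fold (95% interval 148 to 760.0). Npr2, a receptor that makes the cGMP known to hold meiotic arrest, had 38.6, 75.8, 65.1, 67.2 and 79.2 CPM in granulosa libraries and 0 in all oocytes, at least 1015-fold higher. Jag1, a NOTCH ligand, was an oocyte gene (432 ± 126 CPM, SD, n = 12, against 7.57 ± 4.56 CPM, SD, n = 5) and its receptor Notch2 a granulosa gene (91.6 ± 21.4 CPM, SD, n = 5, against 4.64 ± 1.91 CPM, SD, n = 12). In none of Gja1, Gja4, Jag1 and Notch2 was a difference between genotypes called, and for Npr2 edgeR's test is not informative, since all oocytes were at 0.

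Kit and its ligand sit on opposite sides. Kit, the receptor on the oocyte, had 0, 3.35, 0, 0.814 and 2.1 CPM in knockout granulosa libraries and 162 to 313 CPM with a median of 220.5 in knockout oocytes. Kitl, made by granulosa cells, had 14.6, 15.6, 7.99, 11 and 18.2 CPM in knockout granulosa libraries and 1.45 to 5.46 CPM with a median of 4.11 in knockout oocytes, with no overlap and a log2 difference of 1.80 ± 0.35 (SE), adjusted p = 2.82e-05. In the wild type the groups overlapped, with 3.53, 4.55, 9.09, 4.82 and 3.76 CPM in granulosa libraries and 13.8, 1.84, 7.63, 3.87 and 8.02 CPM in oocytes, and no difference was called (log2 -0.40 ± 0.45 (SE), adjusted p = 0.41). The difference between genotypes was 2.20 ± 0.58 (SE), adjusted p = 0.036. It lost its call without knockout granulosa 1, 2 or 5, wild type granulosa 1, 2, 4 or 5 or wild type oocyte 1 (adjusted p up to 0.0895) or without wild type granulosa 3, 4 and 5 together (0.109). For Kit the difference between genotypes was -2.19 ± 0.55 (SE), adjusted p = 0.0286, lost without knockout granulosa 3 or 4, wild type granulosa 2 or 4 or wild type oocyte 2 (adjusted p up to 0.0775), and it rests on 1.25 against 5.39 CPM in granulosa cells.

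Receptors and effectors for oocyte factors were split about as all tested genes were, with 11 higher and 8 lower of 21 (45.1% and 40.3% of all tested genes). Smad3 was higher in oocytes (log2 -4.16 ± 0.22 (SE), adjusted p = 3.05e-16) and Tgfbr1, a receptor that GDF9 uses, in granulosa cells (log2 4.71 ± 0.34 (SE), adjusted p = 1.66e-13). The targets Id2 and Id3 were granulosa genes, at 226 ± 79.4 CPM and 377 ± 101 CPM (SD, n = 5). With the main scaling both genotypes were called in opposite directions in 2 members. Their wild type direction was not checked with other scalings. Bmpr2, the type 2 receptor for GDF9 and BMP15, had 186, 252, 185, 127 and 150.1 CPM in knockout and 108, 48.9, 82.7, 63.9 and 96.4 CPM in wild type granulosa libraries, without overlap (log2 knockout minus wild type 1.17 ± 0.27 (SE), adjusted p = 0.0214), and 93.2 to 219 CPM with a median of 115 in knockout oocytes. Its cell type difference was 0.50 ± 0.22 (SE), adjusted p = 0.0339 in the knockout and -0.99 ± 0.27 (SE), adjusted p = 0.00133 in the wild type, and the difference between them 1.49 ± 0.34 (SE), adjusted p = 0.0213. Tgfbr3, which binds inhibin, had 54.1, 136, 47.4, 39.5 and 28.1 CPM in knockout and 16.8, 8.71, 18.4, 12.9 and 16 CPM in wild type granulosa libraries, also without overlap, and 21 to 60.5 CPM with a median of 31 in knockout oocytes. Its difference was 0.85 ± 0.27 (SE), adjusted p = 0.00507 in the knockout and -1.34 ± 0.34 (SE), adjusted p = 0.000767 in the wild type, and the difference between them 2.19 ± 0.44 (SE), adjusted p = 0.0083. The knockout direction of Bmpr2 was not called without knockout granulosa 1, 2 or 3 (adjusted p up to 0.159), nor that of Tgfbr3 without knockout granulosa 2 (0.231); the difference between genotypes was called for both in each of those fits, and for Bmpr2 not without wild type granulosa 3, 4 and 5 (0.088).

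**Figure D4:**
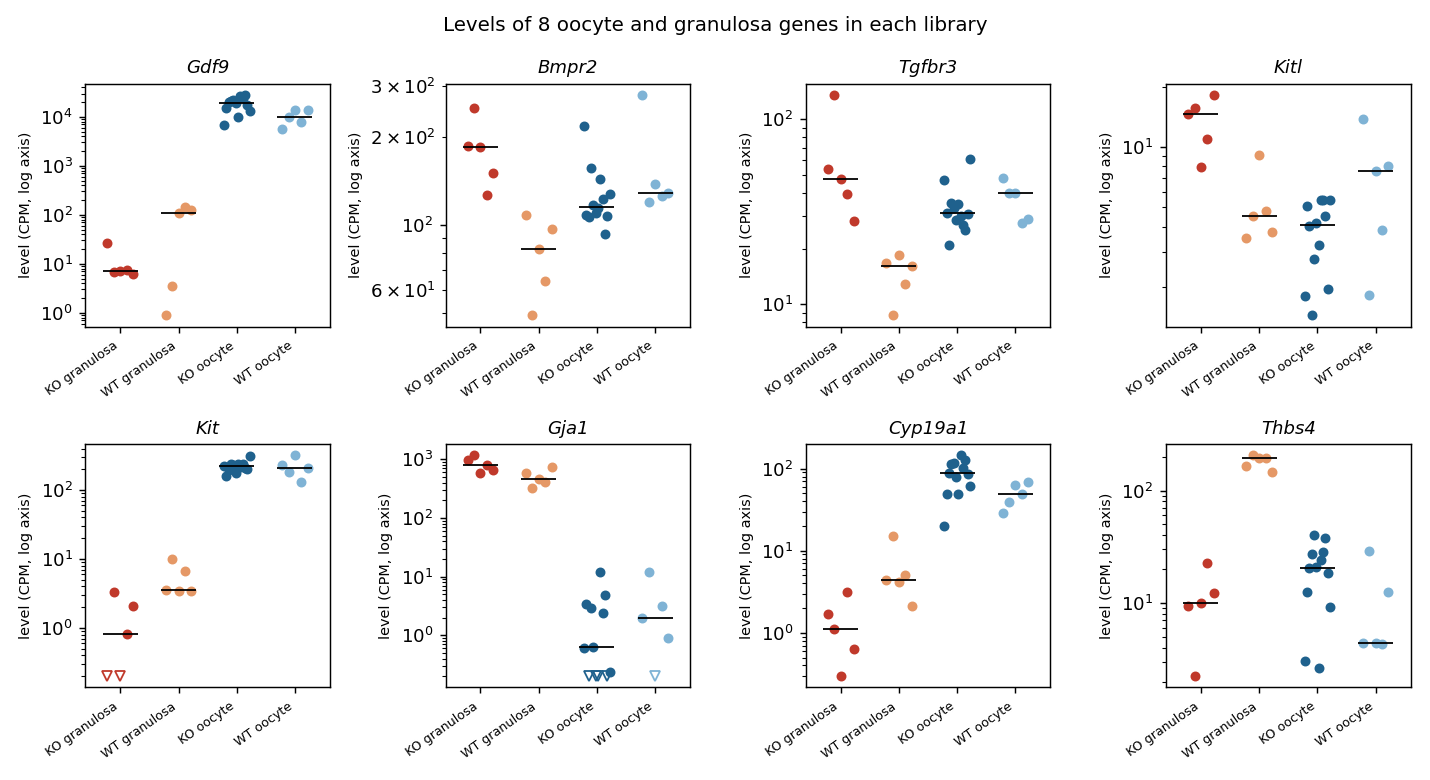
Level of 8 genes in each library, in CPM on a log axis; points are libraries, bars are medians, and open triangles at the lower edge are libraries below 0.2 CPM. KO and WT granulosa libraries do not overlap for Bmpr2, Tgfbr3, Kit and Thbs4, and overlap for Kitl, Gja1, Gdf9 and Cyp19a1.

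Metabolic genes were mostly higher in granulosa cells (45.1% of all tested genes were higher). In the wild type 19 of 19 glycolysis and 17 of 20 cholesterol synthesis genes were called in the same direction, as were 77% of all tested genes. Of 19 glycolysis genes 17 were higher in knockout granulosa cells, for example Tpi1 (1560.1 ± 647 CPM against 31.4 CPM, SD, n = 5) and Pgk1 (138 ± 51 CPM against 2.47 CPM). Ldhb and Slc16a1 were lower, Ldhb at 95.1 ± 30.9 CPM against 1574 ± 391 CPM (SD). Of 20 cholesterol synthesis genes 14 were higher, such as Fdps at 439 ± 91.3 CPM against 9.28 CPM and Mvk, at 0 in oocytes and at least 445-fold higher; Insig1, Sc5d, Hmgcs1 and Fdft1 were lower. No member of either list was called for the difference between genotypes. Of all tested genes 2.76% were, a share at which lists of this size hold few calls or none. Of 10 transporters 6 were higher and 2 lower (45.1% and 40.3% of all tested genes). Slc38a2, which carries small neutral amino acids, had 235, 253, 163, 155 and 125 CPM in granulosa libraries and 0 to 0.463 CPM with a median of 0 in oocytes, and Slc6a20a was at 0 in granulosa cells and at least 384-fold higher in oocytes.

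Matrix genes were higher in 21 of 25 members and lower in 3, Itga6, Lama5 and Lamb1 (45.1% and 40.3% of all tested genes). Col4a1, a chain of basement membrane collagen, had 546, 723, 1046, 933 and 519 CPM in knockout granulosa libraries, 139.6, 85.6, 244, 195 and 225 CPM in wild type ones and 0.902 to 10.5 CPM with a median of 5.96 in knockout oocytes. The knockout granulosa libraries were all above the wild type ones (log2 2.08 ± 0.49 (SE), adjusted p = 0.025), and the cell type difference was wider by 3.70 ± 0.65 (SE), adjusted p = 0.00329. Col4a2 gave 2.88 ± 0.54 (SE), adjusted p = 0.0053 and Timp3, an inhibitor of matrix proteases, 4.73 ± 0.82 (SE), adjusted p = 0.00329. With limma on log2(CPM + 5), which gives low values less weight, the Timp3 difference was 1.64 and that of Col4a1 2.89. Sparc and Vcan were at 2338 ± 889 CPM and 399.7 ± 89.7 CPM (SD, n = 5) in knockout granulosa cells, with no difference between genotypes called.

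Thbs4, a matrix protein, was the 1 matrix gene not called in the knockout; Thbs4, Col4a1 and Tspan8 are also on a list chosen earlier for knockout against wild type in these granulosa libraries, so that their direction there is not independent evidence. It had 166, 205, 194, 194 and 145 CPM in wild type and 9.44, 2.23, 10.1, 22.5 and 12.2 CPM in knockout granulosa libraries, and 2.67 to 40.5 CPM with a median of 20.7 in knockout oocytes. The wild type granulosa libraries were all far above the others, whereas knockout granulosa cells and oocytes overlapped. Its difference was 4.04 ± 0.62 (SE), adjusted p = 8.96e-07 in the wild type and -0.80 ± 0.50 (SE), adjusted p = 0.133 in the knockout, and the difference between them -4.84 ± 0.79 (SE), adjusted p = 0.00226. Tspan8 was similar, with 1.09 CPM in knockout granulosa cells and 1.06 CPM in knockout oocytes (adjusted p = 0.993), against a log2 difference of 3.29 ± 0.56 (SE), adjusted p = 5.02e-06 in the wild type and a difference of -3.29 ± 0.77 (SE), adjusted p = 0.0221.

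On that list of 20 genes 16 were higher, 1 lower and 3 not called in the knockout. Of all tested genes 45.1% were higher and 40.3% lower. In 4 of its receptor and transport genes the genotypes were called in opposite directions, as in 22 of all 15349 tested genes. The list was chosen for knockout against wild type in these granulosa libraries. The differences between genotypes of its members given here are therefore not independent evidence. Lgr5, a receptor for R-spondins, had 5.3, 7.53, 17.3, 20.8 and 16.3 CPM in wild type and 0, 0, 0.296, 0.814 and 2.31 CPM in knockout granulosa libraries, and 0.98 to 10.2 CPM with a median of 2.4 in knockout oocytes: 4.19 ± 0.70 (SE) in the wild type, -1.86 ± 0.62 (SE) in the knockout, difference -6.05 ± 0.94 (SE), adjusted p = 0.00151. With total count scaling its knockout direction was not called (-1.12, adjusted p = 0.0793). Its relative Lgr6 went the other way, with 28.3, 6.69, 24, 24.7 and 59.9 CPM in knockout and 0, 1.58, 2.81, 3.3 and 0.654 CPM in wild type granulosa libraries and a difference of 4.49 ± 0.70 (SE), adjusted p = 0.00151. The knockout direction of Lgr6 was not called without knockout granulosa 5 (adjusted p = 0.17). Atp2b4, a calcium pump, had 32.6, 31.8, 56.5, 33.2 and 32.9 CPM in knockout and 8.84, 5.94, 6.28, 7.61 and 6.86 CPM in wild type granulosa libraries, with a difference of 2.96 ± 0.49 (SE), adjusted p = 0.00229. Thrb, a thyroid hormone receptor, had 22.3, 21.7, 16.9, 17.5 and 15.5 CPM and 1.77, 3.17, 3.25, 2.79 and 1.96 CPM, with a difference of 2.98 ± 0.54 (SE), adjusted p = 0.00398.

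**Figure D5:**
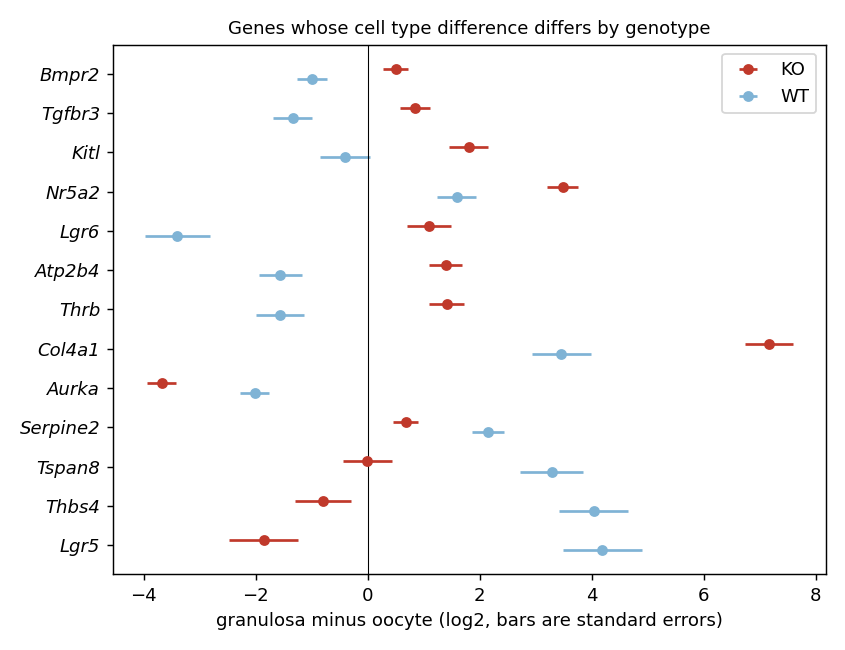
Log2 difference of granulosa minus oocyte in KO (red) and WT (blue) for 13 genes whose difference between genotypes was called; bars are standard errors. Bmpr2, Tgfbr3, Lgr6, Atp2b4 and Thrb are above 0 in KO and below 0 in WT, as is Kitl without a call in WT, and Lgr5 is the reverse.

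Among 25 tested granulosa identity genes, the difference between genotypes was called higher in 3 and lower in 1, beside 0.867% and 1.89% of all tested genes. Without wild type granulosa 3, 4 and 5 it was called in 1 of the 25. Of the called genes Nr5a2, Fst and Serpine2 are described here. Nr5a2, a nuclear receptor of granulosa cells, had 217, 467, 225, 124 and 131 CPM in knockout and 94.5, 46.1, 62.4, 48.2 and 129 CPM in wild type granulosa libraries, which overlapped at one library, and a difference between genotypes of 1.89 ± 0.45 (SE), adjusted p = 0.0231, not called without knockout granulosa 2, wild type granulosa 4 or wild type oocyte 1 (adjusted p up to 0.0631), nor without wild type granulosa 3, 4 and 5 (0.0713). Fst, which binds activin, had 252, 239.8, 292, 231 and 214 CPM in knockout granulosa libraries and 3.95, 39.1, 0, 3.64 and 0 CPM in wild type oocytes; its difference of 4.51 ± 1.08 (SE), adjusted p = 0.0231 fell to 2.08 without wild type oocyte 2 (adjusted p = 0.264) and was not called without wild type granulosa 4 (0.0518) or without wild type granulosa 3, 4 and 5 (0.131). Serpine2, a protease inhibitor, narrowed from 2.15 ± 0.28 (SE) in the wild type to 0.68 ± 0.22 (SE) in the knockout (difference -1.47 ± 0.36 (SE), adjusted p = 0.0249; adjusted p = 0.0564 without knockout granulosa 3).

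A share of the called differences lay in genes whose levels were far apart between the cell types. In 351 of 423 genes (83.0%) the gap was wider in the knockout. Over all tested genes the median absolute log2 difference was 3.00 in the knockout and 2.89 in the wild type. Of the 423, 131 (31.0%) had cell types at least 50-fold apart in both genotypes, as had 23.9% of all tested genes. The 2 shares are not alike in base, since all tested genes include those at 0 in a whole cell type, where edgeR called no difference. The gap was wider in the knockout in all 123 of the 131 that were oocyte-high and in all 8 that were granulosa-high. The oocyte marker sum in granulosa libraries, given above, was 12.3 to 43.8 CPM in the knockout and 0.884 to 233 CPM in the wild type; the same sum was higher in knockout than in wild type oocytes (31273 ± 7060.0 CPM, SD, n = 12, against 21202 ± 5320 CPM, SD, n = 5; exact two-sided permutation test, adjusted p = 0.0411, and 0.0546 with total count scaling). The part of either in these calls was not tested. For Gdf9, wild type granulosa 1 and 2 had 0.884 and 3.56 CPM and 3, 4 and 5 had 109, 146 and 127 CPM, against 26.6, 6.69, 7.1, 7.6 and 6.29 CPM in the knockout. Its difference between genotypes was -3.83 ± 0.90 (SE), adjusted p = 0.0218, and that of Zp3 was -4.62 ± 0.96 (SE), adjusted p = 0.00949. A fit without wild type granulosa 3, 4 and 5, chosen after seeing the data, left 2 libraries in that group. These libraries were picked by a marker sum that contains Gdf9 and Zp3, so the loss of those calls (adjusted p = 0.615 and 0.621) follows from the choice and is no test of oocyte genes. In that fit 183 genes were called in place of 423, and 102 of the 423 stayed called. Thbs4, Lgr5, Lgr6, Atp2b4 and Col4a1 were among those that stayed called in it, and Thrb (adjusted p = 0.0502) and Tspan8 (0.129) were not. With limma on log2(CPM + 5), which gives low values less weight, Zp3, Gdf9, Cyp19a1, Slc38a2, Enpp1 and Kit were not called (adjusted p = 0.0729 to 0.17).

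For a gene at 0 in a whole cell type the fitted difference between genotypes depends on the method. Of the tested genes 1950 were at 0 in every oocyte library and 1268 in every granulosa library, and edgeR called the difference in 0 of them, with 0 at an unadjusted p under 0.05. With limma on log2(CPM + 5) 195 of the 1950 and 4 of the 1268 were called. Among the 1950, 19 differed between knockout and wild type granulosa cells. Pak3, at 62.5 ± 16.2 CPM in knockout and 15.5 ± 3.42 CPM in wild type granulosa cells (SD, n = 5 each), was one of them (log2 2.00 ± 0.34 (SE), adjusted p = 0.0106), as was Lhcgr, the receptor for luteinizing hormone, at 3.17 ± 2.21 CPM and 40.6 ± 26.9 CPM (log2 -3.60 ± 0.63 (SE), adjusted p = 0.0106). With limma on log2(CPM + 5) their differences between genotypes were called, at 1.69 (adjusted p = 7.03e-06) for Pak3 and -2.31 (adjusted p = 3.94e-05) for Lhcgr. Pak3 is also on the list chosen earlier for knockout against wild type in these granulosa libraries, so its direction is not independent evidence.

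Of the 20 genes with the smallest p in the knockout, 10 in each direction, the difference between genotypes was called in 5 (Slc38a2, Cpe, Cst3, Rhpn2 and Rgs17) and not in 15. Of all tested genes it was called in 2.76%. The 20 were picked by level and by small p in the knockout libraries, which the difference between genotypes also uses. Their larger share of calls is therefore no result about these genes. Eef1a1, a translation elongation factor, was higher in knockout granulosa cells (log2 5.37 ± 0.20 (SE), adjusted p = 8.84e-19, wild type 4.68), as were Sdc4, a cell surface proteoglycan (log2 8.46, wild type 7.40) and Nedd4, a ubiquitin ligase (log2 4.10, wild type 3.69). Lower were Plk4, the kinase of centriole copying (log2 -5.33 ± 0.20 (SE), adjusted p = 5.87e-19, wild type -5.34), Ccdc186 (log2 -5.39, wild type -5.31), Kif23, a motor of cell division (log2 -6.65, wild type -5.75) and Sfmbt1 (log2 -6.07, wild type -5.90). The most abundant transcript of knockout granulosa cells was Spp1, osteopontin, at 19187 ± 6178 CPM (SD, n = 5), and that of knockout oocytes was Zbed3 at 23812 ± 7549.8 CPM (SD, n = 12).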

How the data were processed

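The authors deposited expected counts per gene (estimated counts that need not be whole; 17.0% of values were not) for each cell type and age, made with STAR and Partek on mm10, per the submitters' processing notes; versions are not given. The 2 tables of 7 weeks were joined by gene symbol, with 0 where a gene is in 1 table only (21673 genes, 13007 in both; the smallest row totals are 3.44 and 5.43), and rounded. All 27 libraries of 4 groups were fitted in 1 model with edgeR 4.0.16 (R 4.3.3): filterByExpr, TMM scaling, quasi-likelihood F test, Benjamini-Hochberg adjustment over 15349 genes, calls at adjusted p under 0.05. The model contrasts were granulosa minus oocyte in each genotype and the difference of those. CPM are TMM-scaled. A group at 0 was set to 3 counts over the group, and 95% intervals of ratios are exact; both cover counting error only. Marker sums were tested by exact permutation. The fit was tested on simulated data with the same mean level of a gene in every group, apart from known changes in knockout granulosa cells. In the knockout contrast it found 15 and 13 of 50 genes changed 2-fold up and down, and 44 and 43 of 50 changed 4-fold. For the difference between genotypes it found 1 and 3 of 50 at 2-fold, and 22 and 23 of 50 at 4-fold. Alternatives are DESeq2 1.42.0, limma 3.58.1 and those of the closing section.

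Named were Zp3, Gdf9, Cyp11a1, Inha, Esr2 and Esr1, the 10 genes with the smallest p in each direction (of at least 50 CPM for the knockout contrast and 5 CPM for the difference), the 10 with the highest level in each knockout group, and up to 6 members per gene list with the smallest p plus members called for the difference; the text gives a selection of these, and 1 gene is not reported here. Named outside it after their values were seen were Zfp36l2, Tet1, Tet2, Fzr1, Cdk1, Slc18a2, Gata4, Ldhb, Slc16a1, Insig1, Sc5d, Hmgcs1, Fdft1, Itga6, Lama5, Lamb1, Lhcgr and Ighg2b. The members and lists were chosen with earlier results of these data known. Sample numbers of granulosa and oocyte libraries were checked for pairing, and correlations of deviations were -0.15 to 0.0813. Between cell types this unlike, low correlations cannot show whether libraries of the same number share a mouse. Coordinates are GRCm38 from GENCODE vM21.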

Additional observations from a re-analysis of the deposited data

Results flagged for a closer look

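A library far from the others of its group was found in 13 of 76 groups of genes shown, where chance flags about 1 in 20. Knockout granulosa 1 was highest for Zp3 (0.858 CPM) and Gdf9 (26.6 CPM), knockout granulosa 2 for Tgfbr3 (136 CPM) and knockout granulosa 3 for Atp2b4 (56.5 CPM). Wild type granulosa 5 was highest for Zp3 (6.70 CPM), wild type granulosa 3 for Kitl (9.09 CPM) and wild type granulosa 2 for Cyp19a1 (15.1 CPM). Wild type oocyte 2 was highest for Inha (314 CPM), Gja1 (11.8 CPM) and Fst (39.1 CPM), and wild type oocyte 1 for Bmpr2 (279 CPM), Nr5a2 (49.9 CPM) and Atp2b4 (36.6 CPM).

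The cell type difference was called as unequal between genotypes for these genes by edgeR's quasi-likelihood test. Values are log2 differences, knockout minus wild type, of granulosa minus oocyte. It was higher in the knockout for Mmp14 (5.53), Tent5a (5.31), Timp3 (4.73), Fst (4.51), Lgr6 (4.49), Enpp1 (4.43), Slc38a2 (4.35), Malat1 (3.85), Col4a1 (3.70), Thrb (2.98), Atp2b4 (2.96), Col4a2 (2.88), Kitl (2.20), Tgfbr3 (2.19), Nr5a2 (1.89) and Bmpr2 (1.49). It was lower for Lgr5 (-6.05), Thbs4 (-4.84), Zp3 (-4.62), Gdf9 (-3.83), Tspan8 (-3.29), Plat (-2.91), Cyp19a1 (-2.84), Kit (-2.19), Oma1 (-1.91), Cdc20 (-1.86), Aurka (-1.66) and Serpine2 (-1.47). The sizes depend on how low values are weighted: with limma on log2(CPM + 5) Tent5a gave 1.85, Timp3 1.64, Slc38a2 0.80 and Lgr5 -2.10.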

How the results depend on the processing

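The counts of cell type differences and of those shared by both genotypes stayed within 1.5 times of their value in every alternative run. Leaving out each of the 15 libraries other than knockout oocytes gave 13113 to 13596 genes in the knockout, 12654 to 13005 in the wild type and 11790 to 12274 in both, and leaving out the knockout oocyte column that joins 2 sample numbers gave 13006, 12566 and 11707; the 11 other knockout oocyte libraries were not left out. The count of genes whose difference is unequal between genotypes was not stable: 181 to 630 with 1 of those 15 libraries left out (181 without wild type oocyte 2, 188 without wild type granulosa 4, 204, 242 and 280 without knockout granulosa 3, 5 and 2, 249 without wild type oocyte 1), 1205 with DESeq2 and, in alternatives chosen after seeing the data, 662 with limma on log2(CPM + 5), 183 without wild type granulosa 3, 4 and 5 and 108 without those and wild type oocyte 2. The split of higher against lower among the 423 was 133 to 290, and 340 to 194 with total count scaling. With a replicate block by sample number, 11609 genes were called in the knockout and 0 for the difference. Whether the numbers pair the libraries is not known, and 1 of 9 granulosa libraries correlated best with its own number. Gdf9's difference reversed to 0.97 and 1.03 without those wild type libraries, which were picked by a marker sum that contains Gdf9, and the Esr1 difference in the knockout to 0.0768 with total count scaling. With that scaling 2 marker comparisons of wild type against knockout oocytes were no longer called, theca and stroma (-1.15) and oocyte markers (-0.42). Of 3961 single-gene values under alternatives, 3842 kept their call and, where either fit was called, their direction. Genes under a few CPM are limited by depth.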

Other observations

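Ighg2b, an immunoglobulin heavy chain gene, was at 0 in all granulosa libraries and present in oocytes of both genotypes. It was at 174 ± 74.1 CPM in the 12 knockout oocyte libraries and 155 ± 82.9 CPM in the 5 wild type ones (SD), while the summed immune markers were far lower there (12.1 to 72.3 CPM and 8.39 to 45.4 CPM) and Ptprc, Cd52 and Cd74 were at 0. The gene was named after its values were seen.

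The summed level of endothelial markers was higher in oocytes, at 102 to 225 CPM in knockout oocytes against 18.3 to 32.6 CPM in knockout granulosa cells. The members were split. Of 6 tested, 4 were higher in knockout oocytes and 2 in knockout granulosa cells, beside 40.3% and 45.1% of all tested genes. Cdh5, Vwf, Emcn, Cldn5 and Egfl7 were at 0 in oocytes. The endothelial sum was also higher in knockout than in wild type oocytes (75.5 to 110 CPM in the wild type, exact two-sided permutation test, adjusted p = 0.0105).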
